A study of Homo sapiens with 9 samples.

Results

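The genes described here are the 10 that encode the NF-κB subunits (NFKB1, NFKB2, RELA, RELB and REL) and a set of NF-κB inhibitors and feedback genes (NFKBIA, NFKBIE, NFKBIZ, TNFAIP3 and BIRC3). They were chosen by gene symbol from the 33861 genes of the deposited table, and all 10 were found and passed the filter on low counts that left 20988 genes for testing. Total RNA, depleted of ribosomal RNA, was sequenced from HCT116, an established human colorectal carcinoma cell line, in 9 libraries. The groups were NC (n = 3), Activin (n = 3), given activin A at 100 ng/mL for 5 days, and Activin+HGF (n = 3), given the same activin A treatment and then hepatocyte growth factor (HGF) at 20 ng/mL for another 5 days. All groups were the same line with no engineered allele in the labels, and the labels do not spell out NC. They do not give the total time in culture of the NC and Activin cells, so the second agent and the longer culture cannot be told apart. Nothing states that replicates came from separate cultures, so p-values measure the spread between these libraries, which may be technical. In bulk RNA, fewer cells expressing a gene and less RNA per cell cannot be told apart either.

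NF-κB factors are dimers of 5 related proteins that bind kappaB elements in DNA. In the canonical route, the IKK complex triggers destruction of inhibitors such as IκBα (NFKBIA) and IκBε (NFKBIE), which frees dimers of p50 (from NFKB1) with RelA or c-Rel. In the non-canonical route, the kinase NIK (MAP3K14) and IKKα (CHUK) drive processing of the NFKB2 product p100 to p52, which pairs with RelB. Several NF-κB targets are themselves regulators: TNFAIP3 encodes A20, a ubiquitin-editing inhibitor, BIRC3 encodes cIAP2, a ubiquitin ligase of TNF receptor complexes, and NFKBIZ encodes IκBζ, a nuclear member of the IκB family. Transcript levels do not report processing, degradation or nuclear entry of these proteins.

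The kappaB elements that NF-κB dimers bind are shown first, as they occur near the starts of these genes. The kappaB decamer consensus was searched on both strands of the RefSeq promoter windows of GRCh38.p14, each spanning 250 bases before to 50 bases after an annotated start. It was found in 5.91% of all 35116 windows. Of the 10 members, 8 had at least 1 window (all but RELB and NFKBIE), and 7 of these 8 had a match (all but RELA), in 9 of their 13 windows. The sequences below are 30-base stretches on the strand of the gene, with the matched bases in capitals, and positions are counted back from the annotated start at each match. For the genes that rose after activin, the matches shown were at positions -107 to -97 and -78 to -69 before one NFKB2 start, -67 to -46 before the TNFAIP3 start (a pair of matches on the opposite strand), -199 to -190 and -135 to -126 before the BIRC3 start, and -223 to -214 before the upstream NFKBIZ start. Not shown are those at -176 to -167 and -21 to -12 before another NFKB2 start and at -239 to -230 before the downstream NFKBIZ start.
NFKB2, chr10:102394462-102394491, plus strand: aaacgtcatGGGAATTCCCCcctccggggg
NFKB2, chr10:102394490-102394519, plus strand: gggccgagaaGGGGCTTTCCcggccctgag
TNFAIP3, chr6:137867188-137867217, plus strand: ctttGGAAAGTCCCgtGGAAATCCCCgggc
BIRC3, chr11:102317275-102317304, plus strand: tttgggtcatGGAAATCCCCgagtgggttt
BIRC3, chr11:102317339-102317368, plus strand: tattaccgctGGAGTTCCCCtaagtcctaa
NFKBIZ, chr3:101827757-101827786, plus strand: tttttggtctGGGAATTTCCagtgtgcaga
The genes with no call after activin held matches too, at -49 to -40 in NFKB1, -47 to -37 in REL and -81 to -72 in NFKBIA.
NFKB1, chr4:102501300-102501329, plus strand: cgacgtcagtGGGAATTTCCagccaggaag
REL, chr2:60881518-60881547, plus strand: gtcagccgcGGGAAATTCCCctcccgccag
NFKBIA, chr14:35404811-35404840, minus strand: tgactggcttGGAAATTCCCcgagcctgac
A match is a description of letters in a window, and none of the data measured binding there.

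The libraries held 57453977 to 77016167 counts, so counting error was small for most members, whose lowest count in any library was 51 (REL). Activin replicate 2 and Activin+HGF replicate 1 stood apart from the other libraries of their groups: the chi-square per degree of freedom between replicates was 216 to 276 for pairs with either of them and 60.6 to 86.4 for the other pairs. In the difference between the median log2 CPM (counts scaled to library size) of the 20% of genes with the highest GC content and the 20% with the lowest, each gene centred on its mean, the NC libraries lay at -0.50 to -0.13, the Activin+HGF libraries at 0.19 to 0.33, Activin replicates 1 and 3 at -0.28 and -0.39, and Activin replicate 2 at 0.82. Colon epithelial identity was mixed: EPCAM, CDH1, KRT8, KRT18 and KRT19 were at 9.77 FPKM (the deposited expression value, fragments scaled to transcript length and library size) or above in every library, while KRT20 stayed at or below 2.64, VIL1 at or below 0.03 and CDX1 at 0 in 8 of 9 libraries. Of 13 markers of immune, fibroblast, endothelial and liver cells, 12 were in the table, and their summed level was 3.01 to 4.04 FPKM in NC, 10.2 to 13.0 in Activin and 8.91 to 11.5 in Activin+HGF. CD68 and COL1A1 made up most of it, since the other 10 summed to at most 0.81 FPKM, and the pan-leukocyte marker PTPRC had 0 counts in 7 of 9 libraries.

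Activin raised 5 of the 10 genes and lowered none by the edgeR quasi-likelihood test at an adjusted p under 0.05, in a comparison where 9.58% of all tested genes were called higher, 8.41% lower and 18.0% either way. The 5 were RELB, NFKB2, NFKBIZ, TNFAIP3 and BIRC3. The median log2 fold change of the 10 members was 1.11, against 0.02 over all tested genes. After HGF, 1 member fell (NFKBIZ) and none rose, where 5.45% of genes were called lower and 12.9% either way, and 3 members had an unadjusted p under 0.05. DESeq2 and limma each called 2. Of all 20988 tested genes DESeq2 called 4510 and limma 3528 and 3588, against 2698 by edgeR, and 6313 had an unadjusted p under 0.05. Activin+HGF cells compared with NC had 6 members higher (the same 5 and RELA) and 1 lower (NFKB1), where 16.4% of genes were called higher, 15.0% lower and 31.4% either way. The comparisons share libraries, so they are not independent of each other.

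The fold changes are on counts scaled by TMM (trimmed mean of M-values), while the deposited FPKM carry no such scaling. With library totals in place of TMM, the median of all genes shifted by 0.08 (Activin against NC), -0.34 (Activin+HGF against Activin) and -0.27 (Activin+HGF against NC) on the log2 scale. The share of calls that were higher then moved from 53.2% to 63.5%, from 57.6% to 22.3% and from 52.3% to 36.3%. FPKM of Activin+HGF libraries therefore lie lower against the other groups than the fitted changes do, and fitted changes are read relative to the bulk of genes.

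**Figure D1:**
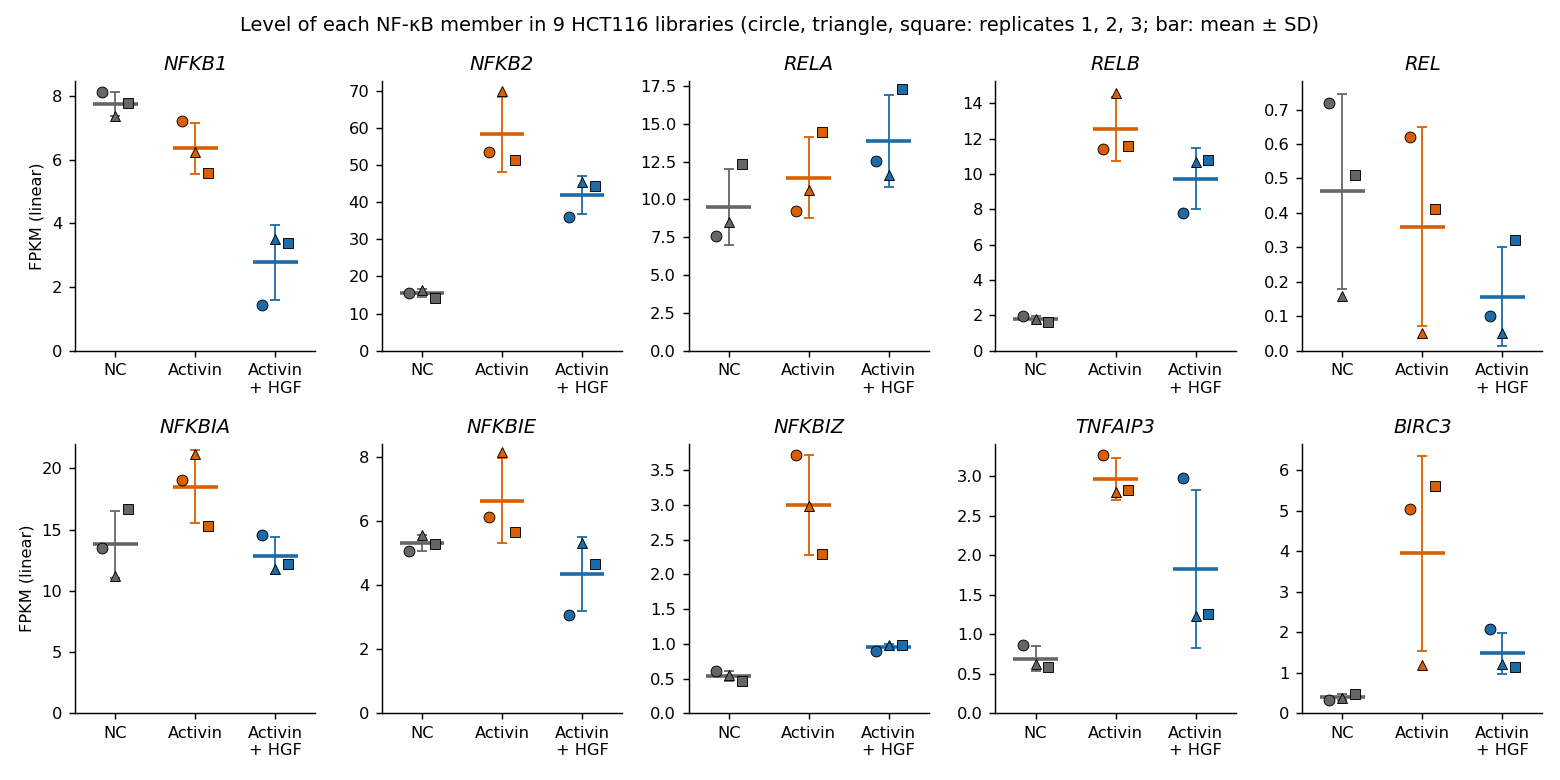
FPKM (linear axis from 0) of the 10 members in each library by group. Circles, triangles and squares are replicates 1, 2 and 3, and bars give the mean ± SD (n = 3). RELB and NFKB2 rise from NC to both treated groups without overlap, NFKBIZ is highest in Activin (2.29 to 3.72 FPKM), and BIRC3 in Activin replicate 2 (1.19) lies far below its other 2 replicates.

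**Figure D2:**
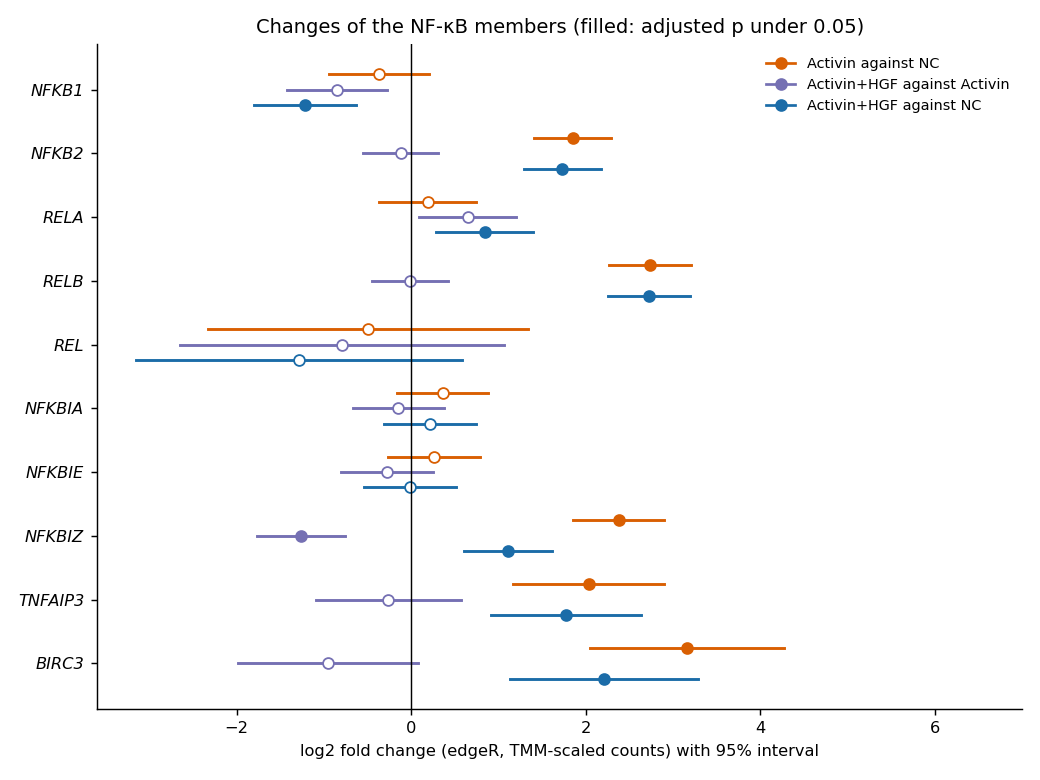
log2 fold change of each member with its 95% interval (edgeR, TMM-scaled counts) in 3 comparisons, with filled points for an adjusted p under 0.05. RELB lies at 2.73 and 2.72 in the comparisons with NC, NFKB1 moves down to -1.22, and NFKBIZ is the filled point in the comparison of Activin+HGF with Activin.

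RELB, the transactivating partner of p52, had the lowest adjusted p of the members in both comparisons with NC. RELB (ENSG00000104856, chromosome 19, 45001449 to 45038198, plus strand) was at 1.97, 1.80 and 1.63 FPKM in NC replicates 1 to 3, at 11.41, 14.62 and 11.58 in Activin and at 7.77, 10.69 and 10.77 in Activin+HGF. Every treated library lay above every NC library, by several times. Its log2 fold change was 2.73 ± 0.21 (SE) after activin, a 6.65-fold rise (adjusted p = 4.20e-05), and 2.72 ± 0.21 for Activin+HGF against NC (adjusted p = 3.16e-05). Between Activin+HGF and Activin the fitted change was -0.01 (95% interval -0.45 to 0.43, adjusted p = 0.972). On the FPKM scale the Activin and Activin+HGF libraries did not overlap.

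NFKB2, which encodes p100 and p52, was the most abundant member in all groups by its mean FPKM. NFKB2 (ENSG00000077150, chromosome 10, 102394110 to 102402524, plus strand) was at 15.62, 16.48 and 14.30 FPKM in NC, at 53.51, 69.86 and 51.40 in Activin and at 36.12, 45.35 and 44.42 in Activin+HGF. It was thus higher in all 6 treated libraries than in any NC library. The log2 fold change was 1.85 ± 0.20 after activin (3.61-fold, adjusted p = 0.000270) and 1.73 ± 0.20 for Activin+HGF against NC (3.32-fold, adjusted p = 0.000210). HGF after activin gave -0.12 (95% interval -0.55 to 0.31, adjusted p = 0.721), with scaled CPM overlapping and FPKM not overlapping between these groups.

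NFKB1, the source of p105 and p50, was lower in Activin+HGF cells than in NC cells. NFKB1 (ENSG00000109320, chromosome 4, 102501331 to 102617302, plus strand) was at 8.13, 7.37 and 7.78 FPKM in NC, at 7.22, 6.25 and 5.60 in Activin and at 1.43, 3.52 and 3.38 in Activin+HGF. Each group lay below the one before it without overlap, and Activin+HGF replicate 1 was the lowest library. The change after activin was -0.37 ± 0.26 on the log2 scale and did not pass the test (adjusted p = 0.382). It passed only without both libraries that stood apart (-0.43, adjusted p = 0.0333), a setting chosen after the data were seen. The change after HGF was -0.85 ± 0.26 and missed the threshold (adjusted p = 0.0566). Of 11 other settings 8 called it lower, among them library totals and limma on FPKM, where Activin+HGF lies lower than with TMM. The GC correction and the fit without both libraries, chosen after the data were seen, were also among the 8. All 9 fits without a single library left it uncalled (adjusted p = 0.0672 to 0.126). Activin+HGF against NC gave -1.22 ± 0.26, a 2.32-fold fall (adjusted p = 0.00620).

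RELA, the main canonical transactivator, changed less. RELA (ENSG00000173039, chromosome 11, 65653597 to 65663090, minus strand) was at 7.59, 8.52 and 12.36 FPKM in NC, at 9.25, 10.65 and 14.44 in Activin and at 12.57, 11.63 and 17.31 in Activin+HGF. Replicate 3 was the highest library in every group, and the groups overlapped in FPKM. Its log2 fold changes were 0.19 after activin (adjusted p = 0.670), 0.65 after HGF (adjusted p = 0.112) and 0.84 ± 0.25 for Activin+HGF against NC (1.79-fold, adjusted p = 0.0282). The last call was lost with library totals (0.57, adjusted p = 0.109), with limma on FPKM, and without NC replicate 1 (0.65, adjusted p = 0.127), NC replicate 2 (adjusted p = 0.106), Activin+HGF replicate 1 (adjusted p = 0.0585) or Activin+HGF replicate 3 (adjusted p = 0.0975), and without both libraries that stood apart (adjusted p = 0.0558).

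REL, which encodes c-Rel, was scarce and uneven among replicates. REL (ENSG00000162924, chromosome 2, 60881521 to 60931612, plus strand) was at 0.72, 0.16 and 0.51 FPKM in NC, at 0.62, 0.05 and 0.41 in Activin and at 0.10, 0.05 and 0.32 in Activin+HGF. Replicate 2 was the lowest in each group and the groups overlapped. The log2 fold changes were -0.49, -0.79 and -1.28 in the 3 comparisons, each with a standard error above 0.8, and passed no test (adjusted p = 0.749, 0.569 and 0.277). REL transcripts are AU-rich, at the 9.43 percentile of GC content among tested genes.

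These changes altered the makeup of the subunit transcripts. NFKB2 was 39.1% to 48.0% of the summed FPKM of the 5 subunits in NC, 61.6% to 68.9% in Activin and 58.3% to 63.7% in Activin+HGF. RELB rose from 4.46% to 5.79% in NC to 13.9% to 14.4% in Activin and 13.4% to 15.0% in Activin+HGF. The share of NFKB1 was 21.3% to 23.9% in NC, 6.16% to 8.80% in Activin and 2.47% to 4.94% in Activin+HGF. None of these 3 shares overlapped between NC and either treated group, and for NFKB1 the treated groups did not overlap each other. RELA made up 22.3% to 33.8% in NC, 10.5% to 17.3% in Activin and 16.3% to 22.7% in Activin+HGF. Its share fell after activin without overlap, although its mean FPKM was 11.45 there against 9.49 in NC. A lower share is thus not by itself a lower level. In Activin+HGF the RELA share overlapped NC. The REL share was 0.47% to 2.12% in NC, 0.05% to 0.76% in Activin and 0.07% to 0.42% in Activin+HGF. With 3 libraries a side, an exact two-sided permutation test of such a share can give no p below 0.1. The ratio of NFKB2 to NFKB1 in FPKM, which needs no scaling between libraries, was 1.84 to 2.24 in NC, 7.41 to 11.2 in Activin and 12.9 to 25.3 in Activin+HGF. The ratio of RELB to RELA was 0.132 to 0.260, 0.802 to 1.37 and 0.618 to 0.919. Such shares and ratios do not remove the GC trend of the libraries. NFKB2 and RELB lie at higher GC percentiles (91.5 and 96.8) than NFKB1 and RELA (53.1 and 76.45). With offsets for GC content and length, log2 changes for Activin+HGF against NC went from 1.73 to 1.35 for NFKB2 and from -1.22 to -1.12 for NFKB1. Those of RELB and RELA went from 2.72 to 1.94 and from 0.84 to 0.76.

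**Figure D3:**
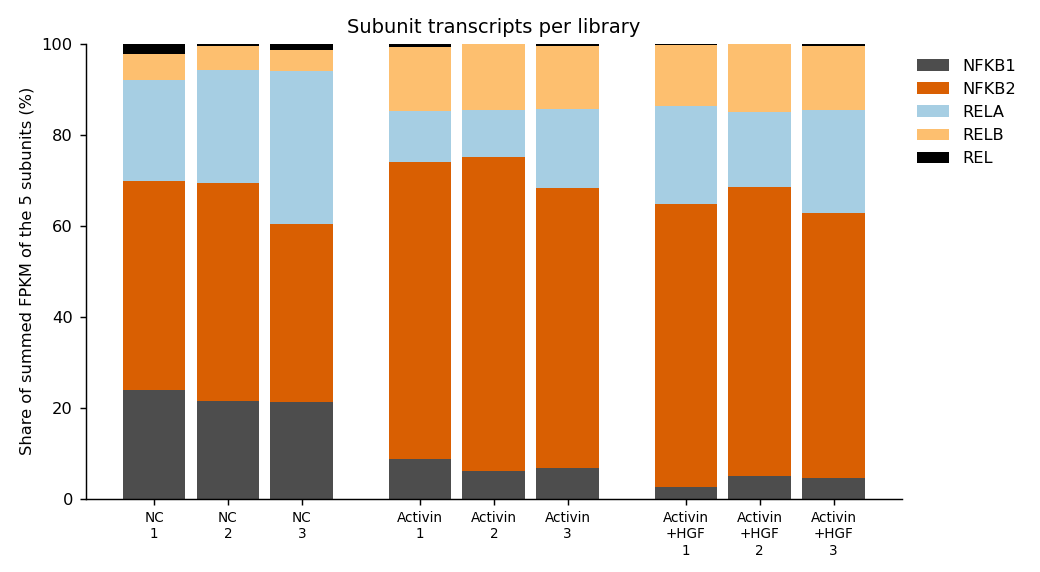
Share of each subunit in the summed FPKM of the 5 subunits (percent, stacked to 100) in each library. NFKB1 narrows from above 21% in NC to below 9% in Activin and below 5% in Activin+HGF, while NFKB2 and RELB widen in every treated library.

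NFKBIA and NFKBIE showed no call in any comparison. NFKBIA (ENSG00000100906, chromosome 14, 35401513 to 35404749, minus strand), the inhibitor that usually restores the resting state first, was at 13.50, 11.20 and 16.69 FPKM in NC, at 19.05, 21.19 and 15.30 in Activin and at 14.59, 11.78 and 12.23 in Activin+HGF. NC overlapped both treated groups. Its log2 fold changes were 0.36 after activin (95% interval -0.17 to 0.89, adjusted p = 0.346), -0.15 after HGF (adjusted p = 0.727) and 0.21 for Activin+HGF against NC (adjusted p = 0.533). NFKBIE (ENSG00000146232, chromosome 6, 44258166 to 44265788, minus strand) was at 5.07, 5.58 and 5.28 FPKM in NC, at 6.12, 8.16 and 5.65 in Activin and at 3.06, 5.31 and 4.65 in Activin+HGF. It was at 0.26 after activin (95% interval -0.27 to 0.79, adjusted p = 0.512), at -0.28 after HGF (adjusted p = 0.478) and at -0.01 against NC in Activin+HGF (adjusted p = 0.976). Intervals leave room for a rise of NFKBIA by up to 0.89 after activin, and none of them reaches the changes of RELB or NFKB2.

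NFKBIZ was the member that rose with activin and fell after HGF. NFKBIZ (ENSG00000144802, chromosome 3, 101827991 to 101859523, plus strand) was at 0.61, 0.55 and 0.47 FPKM in NC, at 3.72, 2.99 and 2.29 in Activin and at 0.90, 0.99 and 0.98 in Activin+HGF. The 3 groups did not overlap, with Activin+HGF between the other two. The log2 fold change was 2.38 ± 0.24 after activin (5.19-fold, adjusted p = 0.000175) and -1.26 ± 0.23 after HGF (2.40-fold lower, adjusted p = 0.00936), a call that every one of 11 other settings and 9 fits without a library kept. Activin+HGF stayed above NC by 1.11 ± 0.23 (2.16-fold, adjusted p = 0.00479), which limma on log2(FPKM + 0.1) and on log2(FPKM + 1) did not call (0.72 and 0.34, adjusted p = 0.0501 and 0.113). The ratio of NFKBIZ to NFKBIA in FPKM was 0.0282 to 0.0491 in NC, 0.141 to 0.195 in Activin and 0.0617 to 0.0840 in Activin+HGF.

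TNFAIP3 rose in both treated groups. TNFAIP3 (ENSG00000118503, chromosome 6, 137867214 to 137883312, plus strand) was at 0.87, 0.62 and 0.58 FPKM in NC, at 3.27, 2.80 and 2.82 in Activin and at 2.98, 1.23 and 1.26 in Activin+HGF. All treated libraries were above NC, and within Activin+HGF replicate 1 was at the Activin level while the other two were lower. The log2 fold changes were 2.03 ± 0.39 after activin (4.09-fold, adjusted p = 0.00586), 1.77 ± 0.39 for Activin+HGF against NC (3.41-fold, adjusted p = 0.00670) and -0.26 ± 0.37 after HGF (adjusted p = 0.682). Without Activin+HGF replicate 1 the change after HGF was -0.93 and was called (adjusted p = 0.0378), and the change against NC was 1.10.

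BIRC3 had the largest fitted rise of the members after activin, and the widest spread among the called ones. For Activin+HGF against NC the rise of RELB was larger. BIRC3 (ENSG00000023445, chromosome 11, 102317450 to 102339403, plus strand) was at 0.34, 0.38 and 0.48 FPKM in NC, at 5.04, 1.19 and 5.61 in Activin and at 2.07, 1.23 and 1.14 in Activin+HGF. All treated libraries were above NC, and Activin replicate 2 was at the level of the Activin+HGF libraries. The log2 fold changes were 3.16 ± 0.50 after activin (8.93-fold, adjusted p = 0.00224), 2.20 ± 0.49 for Activin+HGF against NC (4.61-fold, adjusted p = 0.00689; with limma on log2(FPKM + 1) it was 0.81, adjusted p = 0.128) and -0.95 ± 0.47 after HGF (adjusted p = 0.197). Without Activin replicate 2 the change after HGF was -1.36 and was called (adjusted p = 0.0202). BIRC3 lies at the 1.47 percentile of GC content, and Activin replicate 2 is the library in which GC-rich genes stood highest and GC-poor genes lowest. The part of this library's composition in its BIRC3 value was not tested.

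In NC cells the members fell in the order NFKB2 (15.5 ± 1.10 FPKM, SD), NFKBIA (13.8 ± 2.76), RELA (9.49 ± 2.53), NFKB1 (7.76 ± 0.380), NFKBIE (5.31 ± 0.256), RELB (1.80 ± 0.170), TNFAIP3 (0.690 ± 0.157), NFKBIZ (0.543 ± 0.0702), REL (0.463 ± 0.283) and BIRC3 (0.400 ± 0.0721). NFKBIE stood clear of NFKB1 above it and RELB below it. The neighbours from NFKB2 to NFKB1 overlapped, as did the 4 genes from TNFAIP3 down. In Activin cells the order was NFKB2 (58.3 ± 10.1), NFKBIA (18.5 ± 2.98), RELB (12.5 ± 1.81), RELA (11.5 ± 2.69), NFKBIE (6.64 ± 1.33), NFKB1 (6.36 ± 0.815), BIRC3 (3.95 ± 2.40), NFKBIZ (3.0 ± 0.715), TNFAIP3 (2.96 ± 0.266) and REL (0.360 ± 0.288). RELB overlapped RELA, and NFKBIE overlapped NFKB1. From NFKB1 down to TNFAIP3 neighbours overlapped too, while NFKB2, NFKBIA and REL stood clear of their neighbours. In Activin+HGF cells NFKB2 (42.0 ± 5.08) stood above RELA (13.8 ± 3.04), NFKBIA (12.9 ± 1.51) and RELB (9.74 ± 1.71), then NFKBIE (4.34 ± 1.16), NFKB1 (2.78 ± 1.17), TNFAIP3 (1.82 ± 1.00), BIRC3 (1.48 ± 0.513), NFKBIZ (0.957 ± 0.0493) and REL (0.157 ± 0.144). There RELA overlapped NFKBIA, and each gene from NFKBIE to BIRC3 overlapped the next.

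GC-rich genes stood higher in the Activin+HGF libraries and in Activin replicate 2 than in the NC libraries, while Activin replicates 1 and 3 lay within the NC range. RELB and NFKB2 are GC-rich, with longest transcripts at the 96.8 and 91.5 percentiles. With per-library offsets for GC content and transcript length, chosen after the data were seen, the change of RELB went from 2.73 to 2.23 after activin (adjusted p = 7.05e-06) and from 2.72 to 1.94 for Activin+HGF against NC (adjusted p = 1.25e-05). NFKB2 went from 1.85 to 1.50 (adjusted p = 3.18e-05) and from 1.73 to 1.35 (adjusted p = 3.74e-05). All member calls were kept, and NFKB1 became a call after HGF (-0.74, adjusted p = 0.0369). BIRC3, at the low end of the GC range, moved from 3.16 to 3.01 after activin. The GC trend differed between all Activin+HGF and all NC libraries, so its part cannot be told apart from the treatment and was not tested.

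**Figure D4:**
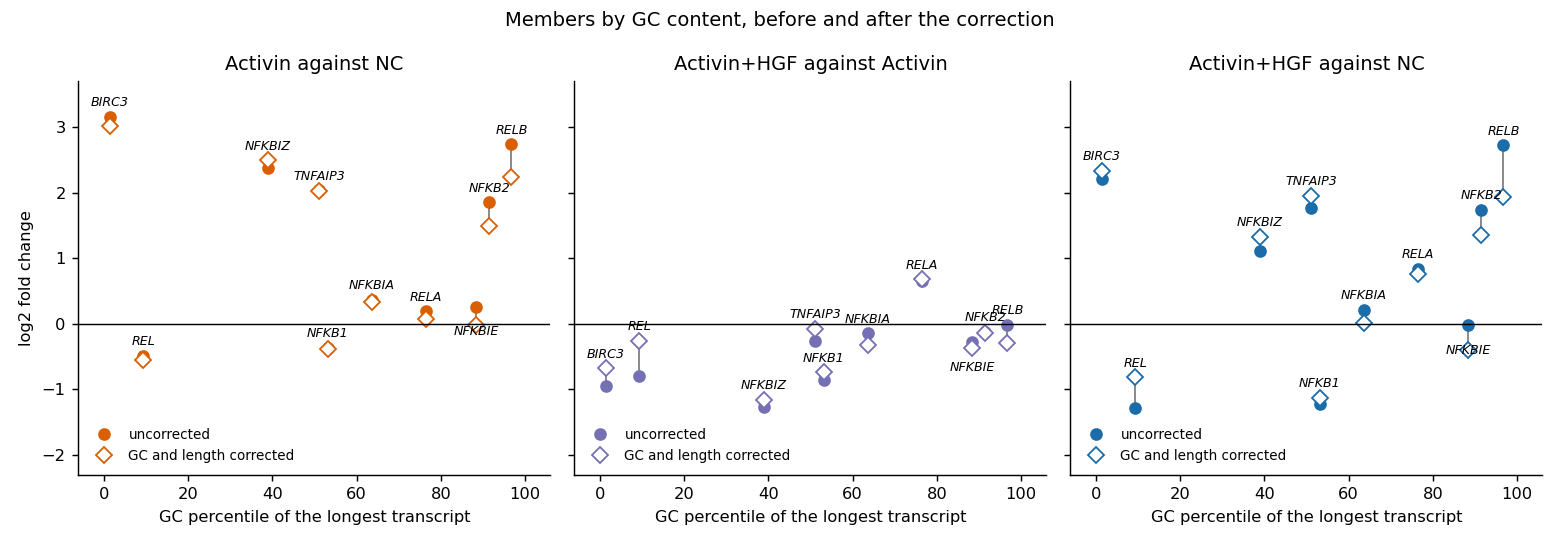
log2 fold change of each member against the GC percentile of its longest transcript in the 3 comparisons, uncorrected (filled circles) and with GC and length correction (open diamonds). RELB and NFKB2 at the right shrink in the comparisons with NC and stay between 1.35 and 2.23, and NFKBIE next to them moves from 0.26 to -0.02 and from -0.01 to -0.39.

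Around the members, 81 further pathway genes in 4 lists were followed, of which 79 were in the table (TLR4 and VCAM1 are not analysed here) and 72 were tested. Activin gave 16 calls higher and 1 lower (23.6%, against 18.0% of all tested genes). HGF after activin gave 5 higher and 8 lower (18.1%, against 12.9%), and Activin+HGF against NC gave 20 higher and 6 lower (36.1%, against 31.4%). The count after HGF was unstable, since leaving out a library gave 3 to 14 calls and fell below 9 without any one NC library, Activin replicate 1 or 3, or Activin+HGF replicate 2. For Activin+HGF against NC it was 16 without NC replicate 3. The count after activin rose to 29 without Activin replicate 2 and Activin+HGF replicate 1 together, a setting in which calls over all genes rose too, from 3776 to 6480.

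Receptors and adaptors counted 2 higher and 1 lower of 25 tested after activin (median log2 fold change 0.31), which is 12%, below the 18.0% of all tested genes. TNFRSF12A, the receptor of TWEAK and an inducer of the non-canonical route, rose from 21.75, 27.88 and 21.90 FPKM in NC to 103.3, 120.3 and 88.35 in Activin (log2 2.06 ± 0.22, adjusted p = 0.000270) and to 136.7, 121.5 and 127.7 in Activin+HGF (2.74 ± 0.23, adjusted p = 4.33e-05). LTBR, the lymphotoxin beta receptor that feeds the same route, fell by 0.85 on the log2 scale after activin (adjusted p = 0.0383). After HGF 1 of 25 was lower (4%, against 12.9% of all genes), and Activin+HGF against NC gave 4 higher and 3 lower (28%, against 31.4%). There MYD88, the adaptor of Toll-like and interleukin-1 receptors, was at -1.80 ± 0.37 (adjusted p = 0.00512) and RIPK1, a kinase of the TNF receptor complex, at -1.53 ± 0.42 (adjusted p = 0.0195). Activin+HGF replicate 1 was the lowest library for both, at 0.59 FPKM of MYD88 against 1.93 and 2.42 and at 0.75 of RIPK1 against 3.57 and 3.75. TRADD, another TNF receptor adaptor, and CARD10, a scaffold of the CARD-BCL10-MALT1 complex, were higher (0.89 and 0.67, adjusted p = 0.0303 and 0.0350).

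Of 10 tested kinases upstream of NF-κB, edgeR called 0 after activin, against 18.0% of all tested genes. An unadjusted p under 0.05 was found for 4 of the kinases, and for 6547 of all 20988 tested genes. DESeq2 called 0 of the kinases, limma on log2(FPKM + 0.1) called 0 and limma on log2(FPKM + 1) called 1. After HGF 1 fell (IKBKE, 10% of the list, against 12.9% of all genes), and 3 were lower in Activin+HGF than in NC (30%, against 31.4%). In the latter comparison DESeq2 and both limma fits called 5 of the 10. They also called more of all 20988 tested genes, 7861 by DESeq2 and 7184 and 7056 by limma, against 6587 by edgeR. IKBKB (IKKβ) was at 2.24, 1.65 and 2.09 FPKM in NC, at 1.86, 1.09 and 1.42 in Activin and at 0.90, 0.92 and 0.79 in Activin+HGF, a change of -0.88 ± 0.21 against NC (adjusted p = 0.00979). IKBKE, a related kinase of low level, was at -3.0 ± 0.53 (adjusted p = 0.00222) and MAP3K7 (TAK1) at -0.79 ± 0.26 (adjusted p = 0.0396). The kinases of the non-canonical route passed no test: after activin CHUK was at -0.39 (adjusted p = 0.282) and MAP3K14 at 0.66 (95% interval -0.19 to 1.50, adjusted p = 0.278). IKBKG (NEMO), the regulatory subunit of the canonical complex, was at 0.37 (adjusted p = 0.360).

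Of the 15 tested genes in the list of further inhibitors and other IκB family members, 3 were higher after activin and 1 after HGF. For Activin+HGF against NC 6 were higher, and no gene was lower in any comparison. These calls were 20%, 6.67% and 40% of the list, against 18.0%, 12.9% and 31.4% of all tested genes called either way. Of all tested genes, 9.58%, 7.41% and 16.4% were called higher and 8.41%, 5.45% and 15.0% lower. The absence of lower calls among 15 genes is not read as a result about the list. BCL3, an atypical nuclear IκB that binds p50 and p52 homodimers, was at 2.44, 2.85 and 2.79 FPKM in NC, at 9.04, 12.69 and 8.07 in Activin and at 3.68, 8.47 and 8.73 in Activin+HGF. It rose by 1.82 ± 0.31 after activin (adjusted p = 0.00330) and lay 1.63 ± 0.31 above NC in Activin+HGF (adjusted p = 0.00328), where replicate 1 was nearest to NC. ZC3H12A, the RNase Regnase-1 that degrades inflammatory mRNAs, and RNF11, a partner of A20, rose after activin by 1.31 and 0.81 (adjusted p = 0.00657 and 0.00694) and were above NC in Activin+HGF by 1.11 and 1.07 (adjusted p = 0.00890 and 0.000978). PDLIM2, a nuclear ubiquitin ligase for RelA, and TAX1BP1, another partner of A20, were above NC in Activin+HGF by 0.86 and 0.74 (adjusted p = 0.0375 and 0.0291). NFKBIB (IκBβ) was at -0.65 after activin (adjusted p = 0.105), rose by 0.91 ± 0.26 after HGF (adjusted p = 0.0427), and was at 0.25 against NC (adjusted p = 0.485). A fit with replicate number as a block and limma on log2(FPKM + 0.1) each called 0 of the list after HGF, so the NFKBIB call was lost. Of all tested genes those fits called 2044 and 3528, against 2698 by edgeR. For Activin+HGF against NC DESeq2 called 6 of the list and both limma fits 3. Of all tested genes these called 7861, 7184 and 7056, against 6587 by edgeR.

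Of the known NF-κB target genes, edgeR called 11 higher and 0 lower of 22 tested after activin (14 with an unadjusted p under 0.05 and 14 called by DESeq2), 4 higher and 6 lower after HGF, and 10 higher for Activin+HGF against NC. The edgeR calls were 50%, 45.5% and 45.5% of the list, against 18.0%, 12.9% and 31.4% of all tested genes. After activin DESeq2 called 5128 of all 20988 tested genes, against 3776 by edgeR, and 6547 had an unadjusted p under 0.05. The neutrophil chemokines CXCL8, CXCL1 and CXCL2 rose after activin by 7.07, 4.65 and 3.31 (adjusted p = 5.16e-06, 2.49e-05 and 0.00172), and all of them fell after HGF, by 1.73, 3.19 and 1.79 (adjusted p = 0.00699, 0.000946 and 0.0340). They stayed above NC in Activin+HGF, by 5.34, 1.46 and 1.52 (adjusted p = 1.22e-05, 0.00423 and 0.0341), although the CXCL2 libraries overlapped NC. CCL20, a chemokine for CCR6-bearing cells, had 0 counts in every NC library and was at least 57.5-fold higher in Activin, against a floor of 3 counts per library, before a fall after HGF (-4.57, adjusted p = 0.0169). Other targets were higher after HGF. IER3, an early response gene of cell survival, was at 266.6 to 298.6 FPKM in NC, 804.0 to 1045.1 in Activin and 1107.8 to 1203.5 in Activin+HGF, a change of 0.75 after HGF (adjusted p = 0.0263) and 2.33 ± 0.19 above NC (adjusted p = 4.05e-05). GADD45B, a stress-response gene, was at 52.89, 15.84 and 15.73 FPKM in Activin+HGF (1.89 ± 0.48 after HGF, adjusted p = 0.0312), with replicate 1 the highest. CSF2, which encodes GM-CSF, was at 0.40, 0.72 and 0.06 FPKM in Activin and at 5.19, 2.63 and 1.43 in Activin+HGF (3.33 ± 0.97 after HGF, adjusted p = 0.0482). PTGS2 (cyclooxygenase 2) rose by 2.80 after activin (adjusted p = 0.000238).

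**Figure D5:**
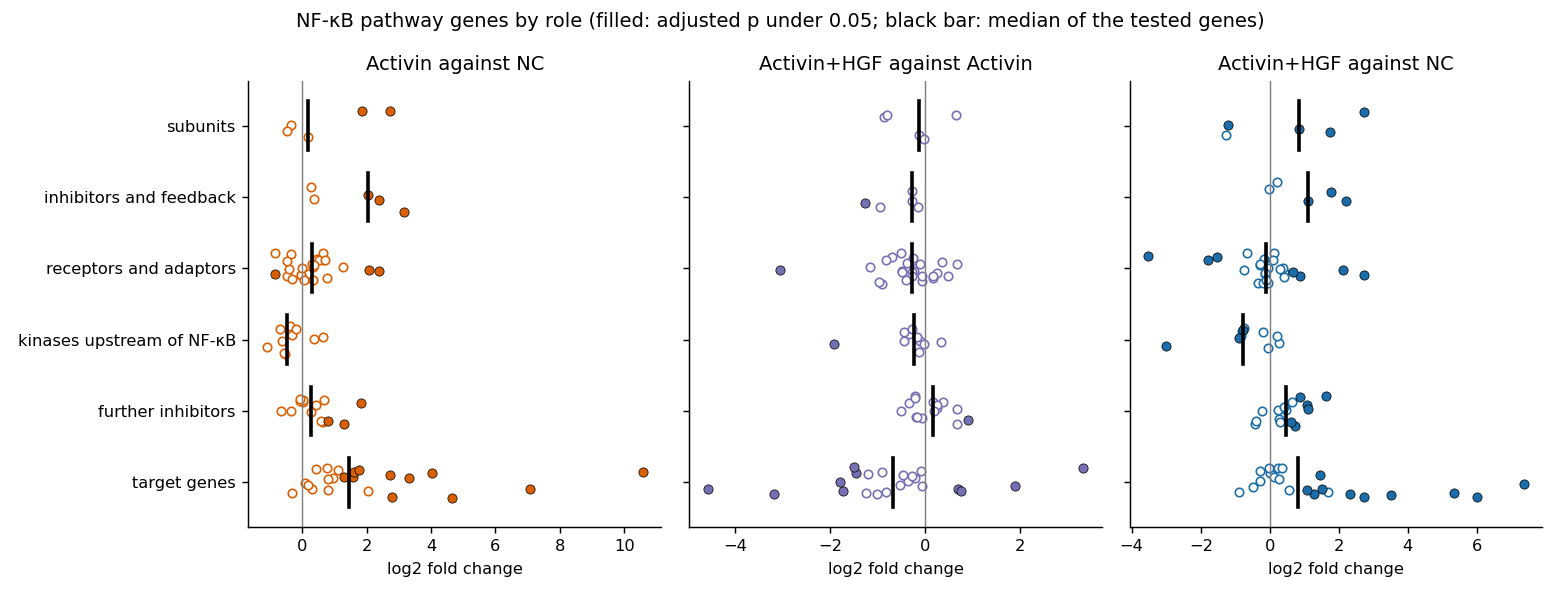
log2 fold change of each tested gene by role in the 3 comparisons, with filled points for an adjusted p under 0.05 and a black bar at the median of each list. Single target genes lie furthest to the right after activin, although the list median is 1.44, below the 2.03 of inhibitors and feedback. After HGF target genes spread to both sides (median -0.67). The kinase medians lie left of 0 in all panels (-0.47, -0.22 and -0.77). CCL20, at the far right of the left panel, has 0 counts in NC, so its fitted value is no bound.

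The tested genes nearest to each called member were found by the root mean square difference of log2 CPM over the 9 libraries, each gene centred on its own mean, among 13945 genes with a mean count over 100. PPP2R5B (0.0783) and AARS1 (0.106) were nearest to NFKB2, and PRPH (0.128) and SESN2 (0.155) to RELB. NCOA6 (0.107) and ARSD (0.131) were nearest to NFKB1, and H2AZ1 (0.185) and AL450405 (0.199) to RELA. The feedback genes had looser neighbours, with AC008687 (0.222) and ATP2C2 (0.226) for NFKBIZ, LMNTD2 (0.277) and PEAR1 (0.305) for TNFAIP3, and SLC7A11 (0.446) and IL1RAP (0.454) for BIRC3. None of the other members was among these neighbours.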

How the data were processed

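RNA-seq of 9 HCT116 libraries was analysed from the table of genes that the authors deposited, which holds raw counts and FPKM per library. The submitters' processing notes name cutadapt 1.9, HISAT2 2.0.4 and StringTie 1.3.4d. The genome build and annotation are not given in the sources used here; of 32930 gene identifiers shared with GENCODE v29 (GRCh38), 99.77% overlapped its spans, and gene coordinates are those of the table. No counting strand is stated, so reads of antisense neighbours cannot be told apart.

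Deposited counts were filtered (filterByExpr), scaled by TMM and tested with the quasi-likelihood test of edgeR 4.0.16 in R 4.3.3, with all 9 libraries and 1 mean per group. Benjamini-Hochberg adjustment ran over 20988 genes and calls needed an adjusted p under 0.05. Scripts were tested on simulated data. Alternatives used DESeq2 1.42.0 and limma 3.58.1 on log2 of the deposited FPKM plus 0.1 or 1. CPM and log2 ratios were computed from these counts. Groups came from sample titles. The labels do not say whether equal replicate numbers mark a pair, and correlations of same-numbered deviations were weak (-0.107 to 0.189). Activin replicate 2 and Activin+HGF replicate 1 stood apart from their groups, so this check cannot exclude a pairing. A fit with that block was an alternative only.

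The members and lists were chosen with earlier results of these data known. Named were all members, CHUK, IKBKB, IKBKG, MAP3K14 and NFKBIB, up to 5 called genes per list and comparison with the largest change and a mean of at least 1 FPKM in the higher group, and the 2 nearest genes of each called member; further genes were named for identity checks or for small counts.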

Additional observations from a re-analysis of the deposited data

How the results depend on the processing

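Members called in Activin against NC stayed at 5 under RLE size factors, library totals, other filters, DESeq2, limma and the GC correction and without any single library, and became 6 without both Activin replicate 2 and Activin+HGF replicate 1. The setting without both was chosen after the data were seen. Calls over all genes rose in it too, to 6480, 5862 and 8404 in the 3 comparisons, from 3776, 2698 and 6587. Members called in Activin+HGF against Activin (1) became 2 under RLE size factors, library totals, a CPM filter, DESeq2, limma with either pseudocount and the GC correction, 4 without both libraries, and 1 to 2 without a single library. Members called in Activin+HGF against NC (7) became 4 with limma on log2(FPKM + 1), 5 with limma on log2(FPKM + 0.1), 6 without both libraries, and 6 to 7 without a single library. Pathway calls were 17, 13 and 26 in the 3 comparisons. The 17 became 29 without both libraries, and 14 to 25 without a single library. The 13 became 3 with only the 2 groups compared, 21 with DESeq2, 20 with limma on log2(FPKM + 1), 23 without both libraries, 2 at an adjusted p under 0.01, and 3 to 14 without a single library. The 26 became 15 at an adjusted p under 0.01, and 16 to 29 without a single library, with 16 without NC replicate 3. The causes were not tested. With a replicate block, 5, 1 and 7 members and 18, 10 and 25 pathway genes were called, and in 5 of 18 checks a library correlated best with its own number in another group. Of 330 member changes under other settings, 312 kept their side of the threshold, 7 lost and 11 gained a call, and none that was called reversed. REL, at 51 to 636 counts, had standard errors that would hide a change of several times.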

Other observations

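The deposited table also annotates genes to the KEGG NF-kappa B signaling pathway, a list that was taken up after the data were seen and that holds 7 of the 10 members. Of its 76 tested genes, 12 were higher and 2 lower after activin (18.4%, against 18.0% of all tested genes), 2 higher and 5 lower after HGF (9.21%, against 12.9%) and 16 higher and 9 lower for Activin+HGF against NC (32.9%, against 31.4%). These shares lay near those of all genes, with median log2 fold changes of 0.31, -0.19 and 0.02.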
